A study of Mus musculus with 6 samples.

Results

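The genes described here are Plin2, Hilpda and Cd36, chosen by name as lipid droplet and lipid uptake genes: 3 of the 559 genes in a deposited table. The table comes from mouse natural killer (NK) cells, which destroy tumour cells and cells infected by viruses; they were purified from spleen, and the labels give the mice as C57BL/6. In the OA group the cells were held for 36 h with oleic acid (OA), a monounsaturated fatty acid, at 0.2 mM. In the control group OA was left out. RNA of 3 OA and 3 control libraries was sequenced; the labels give no genotype other than C57BL/6, no vehicle and no age, and they state that the treatment was run a single time. No label says that libraries of a group came from separate animals or cultures, so p-values measure the spread between these libraries, which may be technical.

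Values are TPM, the share of a library that a transcript holds after correction for its length, on a common scale, so levels of different genes can be set side by side. TPM keeps no read numbers, and the depth of each library is unknown. The table holds genes that had passed the authors' own test on the same libraries (largest authors' Q value 0.0499), so the 3 genes could hardly have failed to differ, and every p-value given here describes that difference and is not independent evidence for it. A gene called not listed is absent from the table, which does not say that it was unchanged.

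Cells that take up more fatty acid than they burn store it as triglyceride in lipid droplets, organelles with a neutral lipid core and a protein coat. Plin2 encodes perilipin 2, the droplet coat protein of most cell types outside fat tissue. Hilpda encodes a small protein that binds and inhibits adipose triglyceride lipase, which slows the breakdown of stored fat, and it is a target of the hypoxia-inducible factors. Cd36 encodes a scavenger receptor at the cell surface that takes up long-chain fatty acids and oxidized lipoproteins; macrophages, platelets, adipocytes, capillary endothelium and heart muscle are known to express it. Transcription of Plin2 and Cd36 is known to be raised by fatty acids through the peroxisome proliferator-activated receptors (PPARs).

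Transcripts of all 3 genes were higher in every OA library than in every control library. The background for that statement is wide, because 45.1% of the 559 listed genes had every OA library above every control library. By limma, a moderated linear model, on log2(TPM + 1) over all listed genes, 3 of 3 rose at a Benjamini-Hochberg adjusted p under 0.05, beside 36.0% of the listed genes called higher by the same rule.

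Plin2 (gene 11520; GRCm38.p6, the mm10 assembly, chromosome 4, 86626910 to 86670217, minus strand) stood at 844, 925 and 1091 TPM in OA replicates 1, 2 and 3, against 537, 573 and 369 TPM in control replicates 1, 2 and 3. OA replicate 3 was the highest library, control replicate 3 was the lowest, and the groups did not overlap. The mean was 953 ± 126 TPM in OA and 493 ± 109 TPM in control (SD, n = 3 each), a 1.93-fold difference. Taking each OA library over each control library, the 9 ratios ran from 1.47 to 2.96. The limma difference was 0.97 on the log2(TPM + 1) scale (SE 0.200, 95% interval 0.46 to 1.47, adjusted p = 0.0260), and the authors' deposited table gives 0.96 with a Q value of 0.00161.

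Hilpda (gene 69573; chromosome 6, 29272488 to 29275449, plus strand) stood at 269, 300.2 and 323 TPM in OA replicates 1, 2 and 3, against 157, 174 and 102 TPM in control replicates 1, 2 and 3. The spread lay mostly in the control group, where replicate 3 was at 0.616 of the mean of the other controls, and the groups did not overlap. The coefficient of variation was 8.999% in OA and 26.1% in control. The limma difference was 1.07 (SE 0.218, 95% interval 0.52 to 1.62, adjusted p = 0.0260), the 9 pairwise ratios ran from 1.55 to 3.17, and the authors' deposited table gives a log2 fold change of 1.05 with a Q value of 0.000821.

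Cd36 (gene 12491; chromosome 5, 17781690 to 17888959, minus strand) stood at 173, 200.5 and 286 TPM in OA replicates 1, 2 and 3, against 108, 119 and 74.8 TPM in control replicates 1, 2 and 3. OA replicate 3 was 1.53 times the mean of the other OA libraries, a wider gap than for Plin2 (1.23) or Hilpda (1.13). The limma difference was 1.12 (SE 0.258, 95% interval 0.46 to 1.77, adjusted p = 0.0274), the 9 pairwise ratios ran from 1.46 to 3.83, and the authors' deposited table gives a log2 fold change of 1.14 with a Q value of 0.00916.

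**Figure D1:**
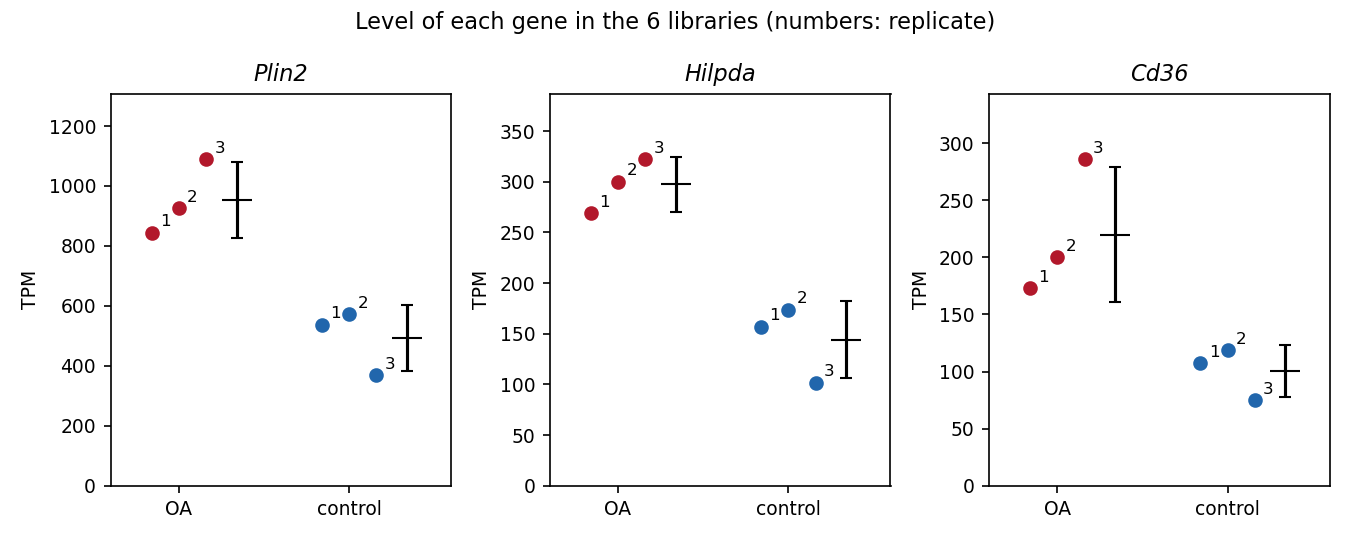
TPM of Plin2, Hilpda and Cd36 (y axes, from 0) in each OA library (red, left) and control library (blue, right); numbers are replicates, and the bar beside each group is its mean and SD over 3 libraries. The lowest OA library lies above the highest control library for each gene, at 844 against 573 TPM for Plin2, 269 against 174 TPM for Hilpda and 173 against 119 TPM for Cd36.

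The calls depended on single libraries. Without OA replicate 2, or without control replicate 1, 0 of the 3 genes passed (adjusted p = 0.0793 and 0.0662 for each gene, limma), and in those fits 0 of all 559 genes passed (with no adjustment, p was under 0.05 for 159 genes higher and 168 lower without OA replicate 2, and for 171 and 168 without control replicate 1). Cd36 also missed the threshold without control replicate 2 (adjusted p = 0.0507, limma) and without control replicate 3 (adjusted p = 0.0557, limma), where Plin2 and Hilpda passed. In those fits, in that order, 87 and 119 of all 559 genes were called higher, against 201 with all libraries. Control replicate 3, lowest for all 3 genes, set part of the size: without it the log2 differences were 0.77 for Plin2, 0.84 for Hilpda and 0.92 for Cd36.

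The proportions of the 3 genes to each other varied less over the libraries than their levels did. Plin2 was the highest of them in each of the 6 libraries and Cd36 the lowest. The ratio of Plin2 to Hilpda was 3.13, 3.08 and 3.38 in OA replicates 1 to 3, against 3.42, 3.30 and 3.62 in control replicates 1 to 3, so the groups overlapped. The ratio of Plin2 to Cd36 was 4.88, 4.61 and 3.81 in the OA libraries, against 4.99, 4.82 and 4.94 in the control libraries, again with overlap. OA replicate 3 was the library where the proportion moved most: its ratio of Hilpda to Cd36 was 1.13, while the other 5 libraries lay between 1.36 and 1.56. These ratios were chosen after the values were seen and carry no test.

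By mean TPM over the 6 libraries Plin2 ranked 38, Hilpda 123 and Cd36 163 among the 559 genes. Among the 235 genes with a mean of at least 100 TPM, ranked by the limma difference from the largest rise down, Cd36 was at place 10, Hilpda at 11 and Plin2 at 14. The places above them include heart muscle genes such as Fabp3 (log2 difference 3.58). None of the 30 listed heart muscle genes passed, and their summed TPM was 63.7, 586 and 7906 in OA replicates 1 to 3.

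**Figure D2:**
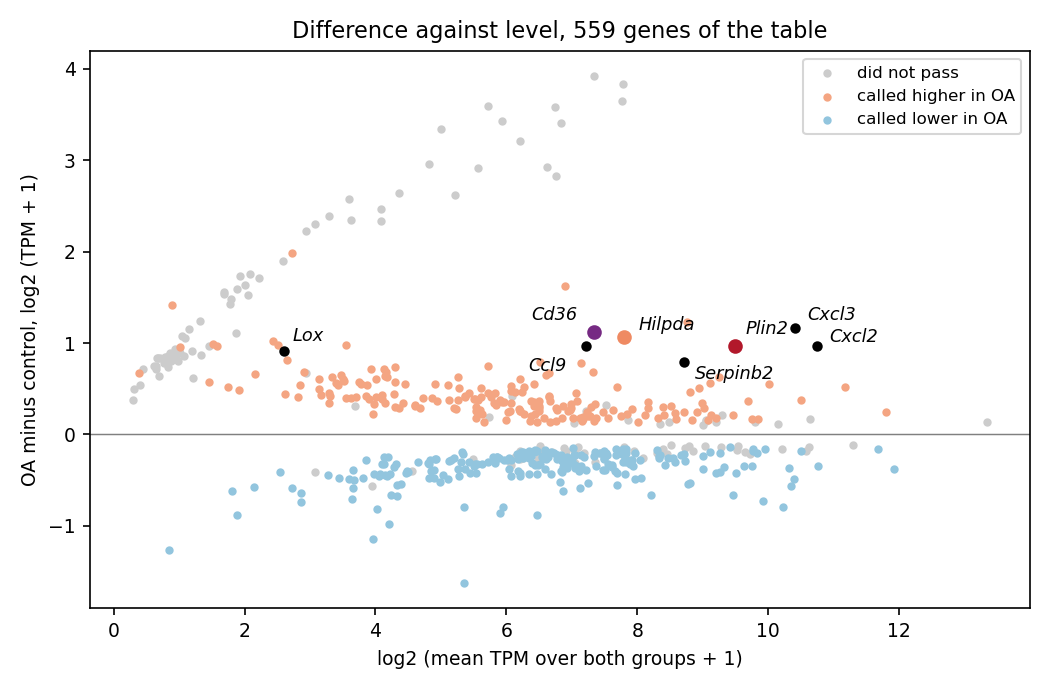
Difference of OA minus control on the log2(TPM + 1) scale (y axis) against the log2 of the mean TPM over both groups plus 1 (x axis) for the 559 listed genes, coloured by the limma call. Cd36 (1.12), Hilpda (1.07) and Plin2 (0.97) lie above most called genes of like level, near Cxcl3, Cxcl2 and Ccl9.

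The genes whose profile over the 6 libraries was nearest to each of the 3 were named by a rule: the smallest root mean square difference of log2(TPM + 1) after each gene's own mean was taken off. For Plin2 they were Cxcl2 (0.0453), Ccl9 (0.0620), Hilpda (0.0764), Serpinb2 (0.102) and Lox (0.111), where the median over all listed genes was 0.636. For Hilpda they were Ccl9 (0.0533), Cxcl2 (0.0627), Cxcl3 (0.0684), Plin2 (0.0764) and Lox (0.0988), with a median of 0.690. For Cd36 they were Plin2 (0.132), Cxcl3 (0.150), Hilpda (0.152), Cxcl2 (0.168) and Ccl9 (0.170), with a median of 0.729. Cxcl2 and Cxcl3 encode neutrophil-attracting chemokines, Ccl9 a chemokine of myeloid cells, Serpinb2 a plasminogen activator inhibitor and Lox an enzyme that cross-links collagen. Cxcl2 stood at 2107, 2212 and 2450 TPM in OA replicates 1 to 3, against 1276, 1375 and 864 TPM in control replicates 1 to 3. Ccl9 stood at 177, 198 and 211 TPM in the OA libraries, against 108, 124 and 72.0 TPM in the control libraries. Both rose (log2 differences 0.97 and 0.97, adjusted p = 0.0260 for each, limma), beside 36.0% of listed genes called higher. Both had the order of libraries that the 3 lipid genes had, beside 11.1% of listed genes. Since Cxcl2 and Ccl9 were picked for like profiles, their rise and order followed largely from that choice.

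Reference promoters of the 3 genes are shown because the genes moved together. They are RefSeq sequences on GRCm38.p6, 250 bases before to 50 after an annotated start, written 5′ to 3′ along the gene, and all 3 genes had an entry. Capitals mark the letters ACGTG and GCGTG, the core of hypoxia response elements, and GGGCGG, the GC box, on either strand. The Plin2 window is chr4:86670010-86670309, minus strand. The 5′ end of the annotated Plin2 gene, at 86670217, lies inside this window and upstream of its start base. That start is thus not the most upstream end of Plin2. The Hilpda window is chr6:29272376-29272675, plus strand, the downstream of 2 listed starts. The Cd36 window is chr5:17835847-17836146, minus strand. It lies inside the annotated gene, whose 5′ end is at 17888959, so it is not at the most upstream end of Cd36.
Plin2: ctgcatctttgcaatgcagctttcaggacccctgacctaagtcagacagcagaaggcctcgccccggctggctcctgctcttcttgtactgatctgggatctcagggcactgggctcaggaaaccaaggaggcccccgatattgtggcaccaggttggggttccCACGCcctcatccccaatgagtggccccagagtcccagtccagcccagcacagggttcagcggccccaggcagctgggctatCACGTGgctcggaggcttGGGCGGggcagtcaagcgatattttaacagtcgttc
Hilpda: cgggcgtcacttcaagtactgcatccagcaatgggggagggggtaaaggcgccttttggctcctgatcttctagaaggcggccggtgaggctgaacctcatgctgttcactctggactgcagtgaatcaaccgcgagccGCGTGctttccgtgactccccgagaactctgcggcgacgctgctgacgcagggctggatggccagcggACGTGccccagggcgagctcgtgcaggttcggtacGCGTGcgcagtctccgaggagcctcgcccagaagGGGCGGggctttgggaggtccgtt
Cd36: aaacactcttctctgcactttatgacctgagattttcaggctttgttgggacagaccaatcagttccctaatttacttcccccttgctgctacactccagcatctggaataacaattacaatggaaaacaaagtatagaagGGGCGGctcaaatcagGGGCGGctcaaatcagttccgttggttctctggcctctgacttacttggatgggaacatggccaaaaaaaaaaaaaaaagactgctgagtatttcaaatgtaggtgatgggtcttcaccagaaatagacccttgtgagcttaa

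Positions count from 0 at the start base. The Plin2 window held ACGTG at −3 on the strand shown and at −4 on the other strand, which together make the E-box CACGTG across the start, and GCGTG at −86 on the other strand. The Hilpda window held ACGTG at −43 and GCGTG at −111 and −8; the upstream Hilpda start had GCGTG at 27, the same bases as the match at −111. The Cd36 window held neither core, and it had GGGCGG at −109 and −93; GGGCGG was at 14 in Plin2 and 26 in Hilpda. Over 32851 windows of the same length, 19.6% held ACGTG, 32.4% GCGTG, 7.15% CACGTG and 35.7% GGGCGG on either strand. Over the 544 windows of listed genes the shares were 19.7%, 35.5%, 8.46% and 47.1%. The letters TGANTCA (N is any base), held by 7.81% of the 32851 windows, were also searched and found at −128 in Hilpda. TATAAA, held by 13.6%, was searched and not found in the windows shown. The direct-repeat PPAR response element, AGGTCA repeated after a spacer base, was searched on both strands; it is in 13 of the 32851 windows and in none of these, and its half-site AGGTCA, held by 16.3% of windows, was found at −218 in Plin2 and −228 in Cd36 on the other strand. A match is a run of letters and not a measured site, and a window without one says nothing of the factor.

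Most other genes of lipid droplets were not listed. Of 36 genes on a list for droplet coats, fat storage and lipolysis, Plin2 and Hilpda were the 2 listed, and the other perilipin genes, Pnpla2 (adipose triglyceride lipase) and its inhibitor gene G0s2 were not. Of 33 fatty acid and lipoprotein uptake genes, 6 were listed, of which 4 rose, 0 fell and 2 did not pass, beside 36.0% of listed genes called higher. Their median log2 difference was 0.83, beside 0.14 over all listed genes; the values above that median are those of Cd36 itself and of Fabp3 (3.58) and Gpihbp1 (1.53), which did not pass. Slc27a1, which encodes a fatty acid transport protein, stood at 9.80, 11.04 and 14.7 TPM in OA replicates 1 to 3, against 7.48, 8.52 and 7.21 TPM in control replicates 1 to 3 (log2 difference 0.54, SE 0.156, adjusted p = 0.0326, limma). The macrophage scavenger receptor gene Msr1 averaged 231 ± 7.15 TPM in OA and 200.3 ± 8.31 TPM in control (SD, n = 3 each; log2 difference 0.20, adjusted p = 0.0304, limma). Without control replicate 3 limma called 2 of the 6 higher, without control replicate 2 it called 0, and without OA replicate 3 it called 5. In those fits, in that order, 119, 87 and 174 of all 559 genes were called higher.

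The 2 uptake genes that did not pass followed OA replicate 3. Fabp3, the heart-type fatty acid binding protein gene, stood at 3.16, 47.1 and 579 TPM in OA replicates 1 to 3, against 2.97, 4.02 and 2.38 TPM in control replicates 1 to 3 (adjusted p = 0.110, limma). Gpihbp1, which holds lipoprotein lipase on capillary endothelium, stood at 0.73, 0.98 and 10.9 TPM in the OA libraries, against 0.13, 0.00 and 0.49 TPM in the control libraries (adjusted p = 0.119, limma).

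Of 39 genes on a list of PPAR targets and fatty acid oxidation genes, 7 were listed, of which 5 rose, 0 fell and 2, Pdk4 and Etfb, did not pass (adjusted p = 0.144 and 0.0508, limma), beside 36.0% of listed genes called higher. Plin2 and Cd36 are 2 of the 5. The other 3 were Cpt1a, the gate of mitochondrial fatty acid entry (log2 difference 0.37), the carnitine carrier gene Slc25a20 (0.37) and the acyl-CoA thioesterase gene Acot1 (0.97, at a mean of 2.99 ± 1.14 TPM in OA and 1.01 ± 0.416 TPM in control, SD, n = 3 each). Without control replicate 2, 1 of the 7 was called, and without control replicate 3, 3 were. In those fits, in that order, 87 and 119 of all 559 genes were called higher. Of 41 hypoxia-inducible factor targets, 5 were listed; Hilpda and Vegfa rose, Hk2 fell, and Ldha and Tpi1 did not pass, beside 36.0% of listed genes called higher and 40.1% called lower. Without control replicate 2 limma called 1 of the 5 higher and 0 lower, so that Vegfa and Hk2 lost their calls. That fit called 87 of all 559 genes higher and 13 lower. Vegfa, the vascular growth factor gene, stood at 47.3, 49.9 and 54.1 TPM in OA replicates 1 to 3, against 40.2, 38.3 and 36.4 TPM in control replicates 1 to 3 (log2 difference 0.39, SE 0.0719, adjusted p = 0.0260, limma). Hk2, which encodes a hexokinase of glycolysis, averaged 72.9 ± 1.88 TPM in OA and 86.2 ± 2.88 TPM in control (SD, n = 3 each; log2 difference −0.24, adjusted p = 0.0260, limma). The median over the 5 listed hypoxia genes was −0.13, with genes of both directions among them.

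**Figure D3:**
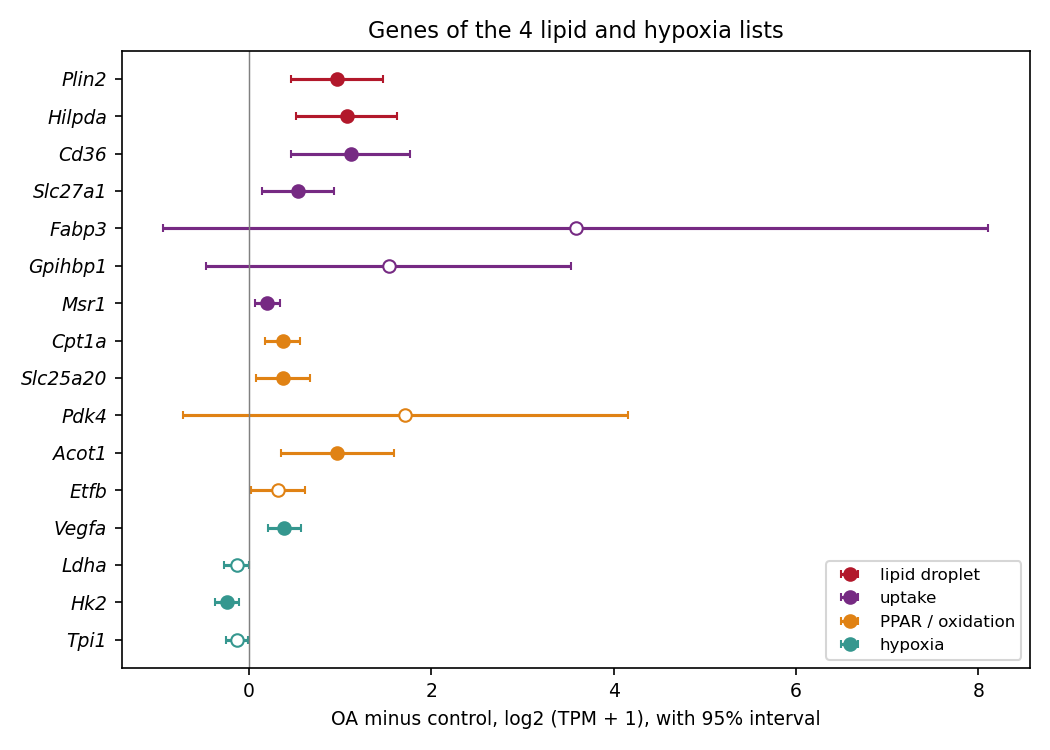
Difference of OA minus control on the log2(TPM + 1) scale (x axis) with its 95% limma interval for genes of the droplet, uptake, PPAR and oxidation, and hypoxia lists that the table lists; filled points passed an adjusted p under 0.05 and open points did not. Plin2, Hilpda and Cd36 lie near 1, the oxidation genes Cpt1a and Slc25a20 near 0.37, and the hypoxia gene Hk2 at −0.24.

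Markers of NK cells moved the opposite way. Of 46 NK markers 23 were listed, and all 23 fell, beside 40.1% of listed genes called lower. For all 23 every OA library was below every control library, beside 48.5% of listed genes. With libraries scaled to equal medians limma called 12 of the 23 lower, where 80 of all listed genes were called lower against 224 as deposited. Ncr1, which encodes the NK receptor NKp46, stood at 105, 91.4 and 79.1 TPM in OA replicates 1 to 3, against 128, 126 and 140 TPM in control replicates 1 to 3 (log2 difference −0.52, adjusted p = 0.0260, limma). Klrk1, which encodes NKG2D, and the transcription factor gene Eomes fell by 0.39 and 0.37 on the log2 scale. The 23 markers summed to 8220, 7655 and 6299 TPM in the OA libraries, against 10260, 9932 and 11896 TPM in the control libraries; Ccl5, Gzmb, Ifng and Gzmc were the most abundant of them. In these bulk libraries fewer cells of a type and less RNA per cell cannot be told apart. Without control replicate 3 limma called 3 of the 23 lower, without control replicate 2 it called 2, and without OA replicate 3 it called 18. In those fits, in that order, 30, 13 and 138 of all 559 genes were called lower.

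The libraries ranked in the same order for each lipid gene and in the exact opposite order for the summed NK markers. From high to low, Plin2, Hilpda and Cd36 each ran OA replicate 3, 2 and 1, then control replicate 2, 1 and 3, and the NK marker sum ran the reverse. Of the 23 NK markers, 17 had that reverse order on their own, beside 22.0% of the 559 listed genes. Control replicate 3 was the highest control for 23 of 23 NK markers and OA replicate 3 the lowest OA library for 23 of 23. Across all listed genes control replicate 3 was the highest control for 272 and OA replicate 3 the lowest OA library for 303. Since the 6 libraries form 2 separate groups of 3, no correlation across them is given, and a relation between lipid genes and markers within a group cannot be tested.

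Markers of monocytes, macrophages and dendritic cells were listed in numbers, 21 of 55, although the cells were labelled as purified NK cells. Of them 16 rose, 3 fell and 2 did not pass, beside 36.0% of listed genes called higher and 40.1% called lower, and their median log2 difference was 0.36, beside 0.14 over all listed genes. For 16 every OA library was above every control library and for 5 every OA library was below, beside 45.1% and 48.5% of listed genes. With libraries scaled to equal medians 11 of the 21 were called higher and 2 lower, beside 162 and 80 of all 559 genes. Il1b, the interleukin 1 beta gene, was the highest of them, at 3726 to 3942 TPM in OA libraries and 3091 to 3350 TPM in control libraries. Cd14, which encodes a monocyte and macrophage receptor for bacterial lipopolysaccharide, stood at 617, 661 and 688 TPM in OA replicates 1 to 3, against 469, 495 and 378 TPM in control replicates 1 to 3 (log2 difference 0.56, adjusted p = 0.0260, limma). Arg1, the arginase gene of alternatively activated macrophages, stood at 153, 176 and 199 TPM in the OA libraries, against 70.0, 81.3 and 30.9 TPM in the control libraries (log2 difference 1.62, adjusted p = 0.0274, limma). The monocyte gene Ly6c2 moved the other way, averaging 91.3 ± 15.3 TPM in OA and 139 ± 4.12 TPM in control (SD, n = 3 each; log2 difference −0.62, adjusted p = 0.0260, limma). The interleukin 1 alpha gene Il1a averaged 1645 ± 44.7 TPM in OA and 1266 ± 70.8 TPM in control, and Mmp12, the macrophage elastase gene, 151 ± 3.36 TPM in OA and 117 ± 9.74 TPM in control (SD, n = 3 each; both rose). Ptgs2 (cyclooxygenase 2) and the C-type lectin gene Clec4d, next in abundance, had log2 differences of 0.36 and 0.21. Without control replicate 2, 7 of the 21 were called higher and 0 lower, beside 87 and 13 of all 559 genes.

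The 21 myeloid markers summed to 10901, 11573 and 11279 TPM in OA replicates 1 to 3, against 9282, 9580 and 8645 TPM in control replicates 1 to 3, a 1.23-fold difference of means, beside 1.99-fold for the 3 lipid genes together. Of the 21, 4 had the library order of the lipid genes, beside 11.1% of all listed genes. The 9 listed B and plasma cell markers summed to 686, 729 and 792 TPM in OA, against 541, 560 and 458 TPM in control. That sum had the library order of the lipid genes, and 8 of the 9 rose, beside 36.0% of listed genes called higher. Limma called 4 of the 9 higher without control replicate 2, and 6 without control replicate 3 or without OA replicate 3. In those fits, in that order, 87, 119 and 174 of all 559 genes were called higher. The 3 listed T cell markers, Thy1, Icos and Cd28, fell, as the NK markers did, beside 40.1% of listed genes called lower. They summed to 922, 860.4 and 743 TPM in OA replicates 1 to 3, against 1071, 1079 and 1160.3 TPM in the same control replicates. Without control replicate 2 or without control replicate 3, 0 of them were called. In those fits, in that order, 13 and 30 of all 559 genes were called lower. Granulocyte and mast cell genes divided, with 3 of the 6 listed called higher and 3 called lower, beside 36.0% and 40.1% of listed genes. Of the 18 endothelial markers 2 were listed, of the 18 platelet and red cell markers 2, and of the 11 adipocyte markers 0. The part of myeloid, B cell or other transcripts in the rise of Plin2, Hilpda and Cd36 was not tested.

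**Figure D4:**
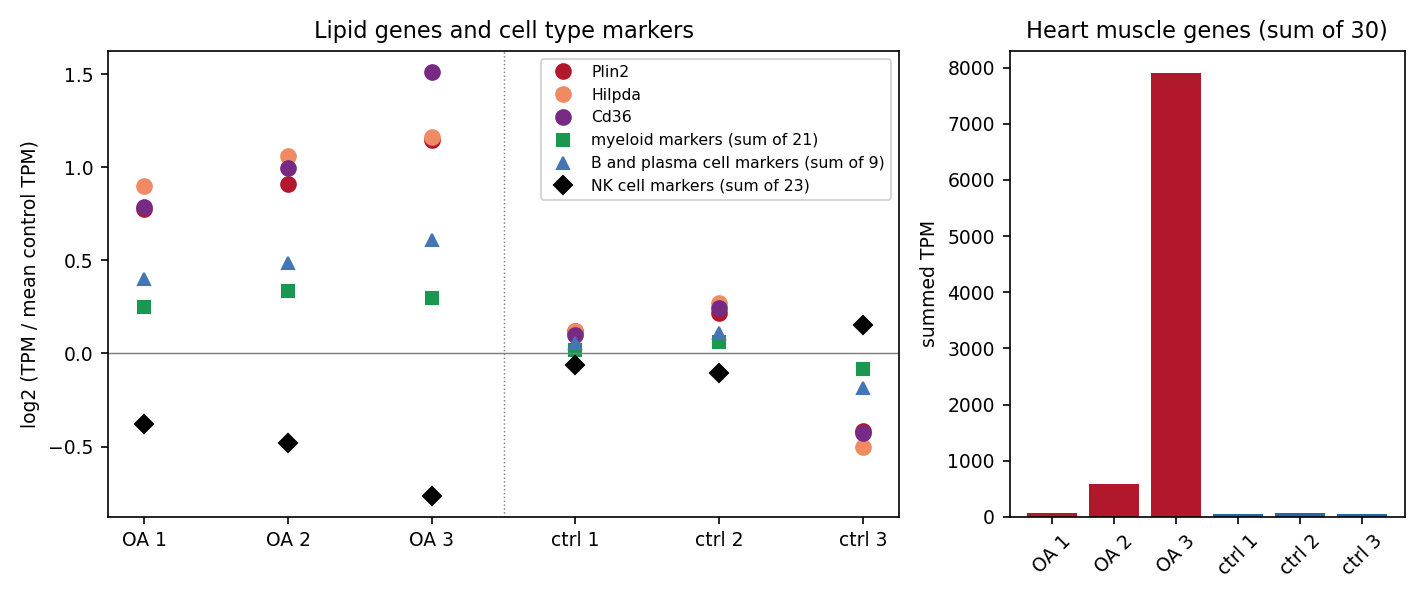
Left, log2 of TPM over the mean control TPM (y axis) in each library (x axis) for Plin2, Hilpda, Cd36 and the summed markers of myeloid, B and NK cells; right, summed TPM of 30 heart muscle genes in each library. The lipid genes and the NK sum are mirror images in order, the myeloid sum differs less (1.23-fold), and the heart muscle sum reaches 7906 TPM in OA replicate 3.

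Ratios within a library do not depend on the TPM scale of that library. Plin2 amounted to 10.3%, 12.1% and 17.3% of the summed NK markers in OA replicates 1 to 3, against 5.23%, 5.77% and 3.10% in control replicates 1 to 3. Relative to the summed myeloid markers Plin2 amounted to 7.74%, 7.99% and 9.67% in the OA libraries, against 5.79%, 5.98% and 4.27% in the control libraries. Both ratios were higher in OA without overlap. The log2 difference against the NK sum was 1.51, and that against the myeloid sum, 0.67, was smaller than for Plin2 alone.

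Hilpda amounted to 2.47%, 2.59% and 2.86% of the myeloid sum in OA replicates 1 to 3, against 1.69%, 1.81% and 1.18% in control replicates 1 to 3. Its log2 difference was 0.78 against the myeloid sum and 1.61 against the NK sum. Cd36 amounted to 1.59%, 1.73% and 2.54% of the myeloid sum in the OA libraries, against 1.16%, 1.24% and 0.865% in the control libraries, with log2 differences of 0.83 and 1.66 against the myeloid and NK sums. For each of the 6 ratios the groups did not overlap and the two-sided exact permutation test gave p = 0.1 (0.1 after Benjamini-Hochberg adjustment over the 6), which is the smallest p that 3 against 3 libraries can give, so none could pass 0.05. Against the NK sum this outcome was fixed in advance. All 3 genes lay above, and all 23 NK markers below, the controls in every OA library. The genes and markers in all 6 ratios had passed the authors' test on these libraries.

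The size of these ratios, and for Arg1 their direction, depended on the myeloid marker. Set against Cd14 alone, the ratio of Plin2 lay between 1.37 and 1.59 in the OA libraries, against 0.975 to 1.16 in the control libraries, and the log2 difference was 0.41 for Plin2, 0.52 for Hilpda and 0.57 for Cd36. Set against Arg1, which rose more than they did, the ratios were lower in OA: Plin2 per Arg1 was 5.52, 5.26 and 5.47 in the OA libraries, against 7.67, 7.05 and 11.9 in the control libraries. Hilpda per Arg1 was 0.663 and Cd36 per Arg1 0.685 of the control mean. The ratios to Arg1 were looked at after its values were seen.

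**Figure D5:**
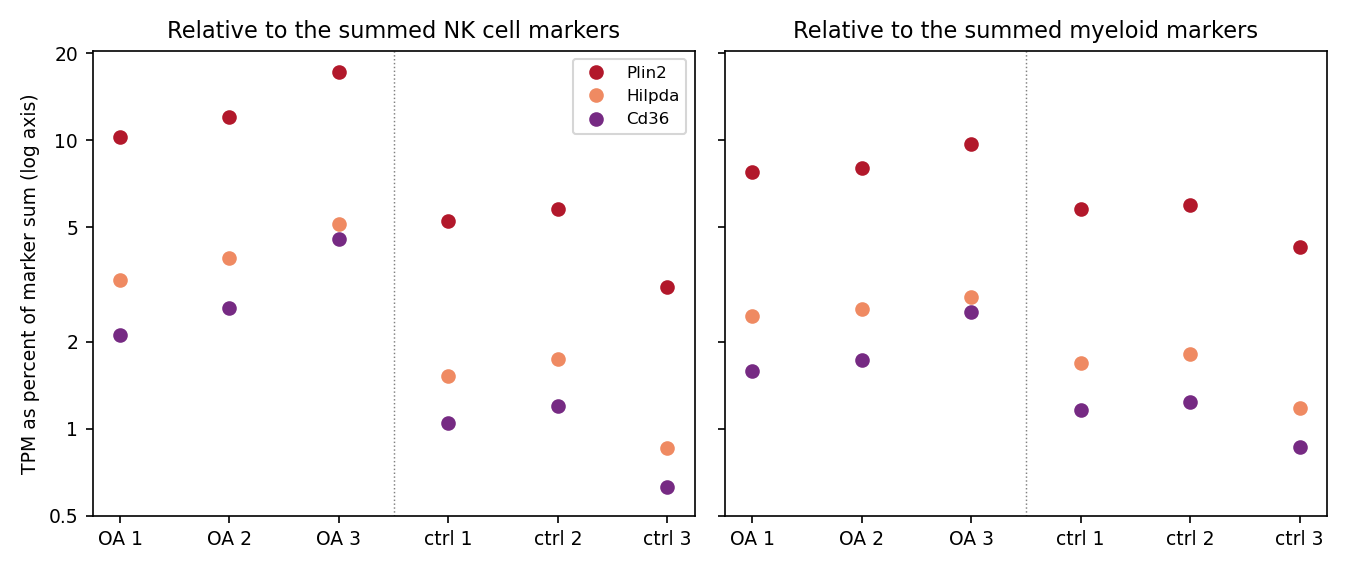
TPM of Plin2, Hilpda and Cd36 as a percent of the summed NK markers (left) and of the summed myeloid markers (right) in each library, on a log axis. OA libraries lie above control libraries in both panels, by more against the NK sum (Plin2 10.3% to 17.3% in OA, 3.10% to 5.77% in control) than against the myeloid sum (7.74% to 9.67% in OA, 4.27% to 5.98% in control).

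Heart muscle transcripts stood apart in OA replicate 3. The 30 listed of 58 heart muscle genes summed to 63.7, 586 and 7906 TPM in OA replicates 1 to 3, against 43.4, 70.3 and 53.6 TPM in control replicates 1 to 3. Heart muscle is among the tissues known to express Cd36. Plin2, Hilpda and Cd36 were each highest in OA replicate 3, which was the highest OA library for 184 of the 559 listed genes. The part of heart muscle transcripts in the level of Cd36 was not tested. In OA replicate 1, where the heart sum lay within the range of the controls, Cd36 was 1.46 times, Plin2 1.47 times and Hilpda 1.55 times the highest control. Leaving out OA replicate 3 keeps OA replicate 2, with its heart sum of 586 TPM. Without OA replicate 3 all 3 genes rose, with log2 differences of 0.87 for Plin2, 1.01 for Hilpda and 0.91 for Cd36 (adjusted p = 0.0403 for each, limma). Without replicate 3 of both groups they also rose, by 0.67, 0.78 and 0.72 for Plin2, Hilpda and Cd36 (adjusted p = 0.0250 for each, limma). In those fits, in that order, 174 and 190 of all 559 genes were called higher.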

How the data were processed

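RNA was measured in 3 OA and 3 control libraries of splenic NK cells. Bowtie2, RSEM 1.3.1, DESeq2 1.4.5 and the build mm10 are named in the submitters' processing notes without roles; the annotation is not given in the sources used here. Per the file headers, the authors deposited TPM per library and a mean TPM per group. Per the file headers, the authors also gave a log2 fold change of OA over control with a P value and a Q value. The table holds genes with a Q value under 0.05, so differences in it are larger than in unselected genes.

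Columns were matched to samples by title and samples grouped by the treatment label. All 559 genes entered 1 unfiltered fit of log2(TPM + 1) on group (limma 3.58.1, R 4.3.3), which was checked on simulated data; adjusted p under 0.05 was the threshold. TPM is a share, so abundant transcripts shift other genes, and log2(TPM + 1) understates changes of low genes. Marker ratios were tested by exact permutation over libraries. Tables, tests and plots were made with Python 3.11.15, scipy 1.17.1, pandas 2.3.3 and matplotlib 3.10.9.

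Named genes were the 3 genes, the listed genes of the droplet, uptake and hypoxia lists, the 4 most abundant and some set markers of the NK and myeloid lists, and the 5 nearest profiles of each gene. Genes of the PPAR and oxidation list, and of the T cell list, fall outside that rule and were named after their values were seen. A gene that this rule names is not reported here. Fabp3 is also on the heart muscle list, Msr1 on the myeloid list and Gpihbp1 on the endothelial list. The genes and lists were chosen with earlier results of these data known. The pathway and marker counts of each refit were added after the data were seen.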

Additional observations from a re-analysis of the deposited data

How the results depend on the processing

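For Plin2, Hilpda and Cd36 the direction held in every fit run: pseudocounts of 0.1 and 10 TPM, genes under a mean of 10 TPM left out, libraries scaled to equal medians, a trended robust prior, heart muscle genes left out, the block and each library left out. Every OA library lay above every control library for each gene, so only the scaling to equal medians could have changed it. With the replicate number as a block (replicate block), the log2 differences were 0.97, 1.07 and 1.12 for Plin2, Hilpda and Cd36 and none passed (adjusted p = 0.115 for each, limma), with 0 genes called higher and 0 lower (149 and 89 at an unadjusted p under 0.05). Whether the numbers pair the libraries is not known. The correlation over genes of same-numbered deviations was 0.327, −0.109 and −0.0808, and OA replicate 3 correlated best with control replicate 2 (0.350). With 3 libraries per group, whose deviations sum to 0, these correlations cannot settle it. Leaving out 1 library gave differences from 0.77 to 1.09 for Plin2, 0.84 to 1.22 for Hilpda and 0.91 to 1.27 for Cd36, and from 0 to 177 genes called higher and 0 to 187 lower, against 201 and 224 with all libraries. Equal medians gave 162 higher and 80 lower. The cause of these losses was not tested. The 6 ratios to marker sums kept their direction with the mean of log2 marker values, with Ncr1 or Cd14 in place of the sum, and with each library left out. Against the NK markers none of these settings could have changed it. Against the myeloid sum the groups did not overlap, so leaving out 1 library could not change it either. Set against Arg1, looked at later, all 3 genes were lower in OA. Leaving out 1 library gave log2 differences of 1.23 to 1.68, 1.303 to 1.82 and 1.35 to 1.90 against the NK sum for Plin2, Hilpda and Cd36, and 0.52 to 0.76, 0.59 to 0.90 and 0.63 to 0.96 against the myeloid sum. TPM keeps no depth, so counting error is unknown.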
